A study of Bos taurus with 4 samples.

Results

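Genes of the extracellular matrix and its receptors were examined in cultured bovine chromaffin cells, the catecholamine-secreting cells of the adrenal medulla, after exposure to PACAP, the pituitary adenylate cyclase-activating polypeptide, which acts on these cells as a transmitter. The members are clones of a mouse cDNA array whose platform annotation gives a single gene symbol for a collagen, laminin, integrin, thrombospondin, fibulin, fibrillin or lysyl oxidase, or for fibronectin, Sparc, decorin, biglycan or tenascin C. They were chosen by symbol and came to 108 clones of 59 genes, out of 22384 clones of 11835 genes with 1 symbol. The pattern for integrins also took in Itgb1bp1, Itgb1bp2 and Itgb3bp, which encode proteins named for binding integrins and not integrin subunits, and these 3 genes are described apart. Of the members, 106 clones of 58 genes gave enough signal to be tested; the single Col22a1 clone and 1 of 4 Col1a1 clones did not.

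In each of 4 biological repeats, cells treated with 100 ng/ml PACAP for 6 h at 37 C were compared with control cells of the same repeat number on 1 array. The PACAP RNA was labelled with Cy5 and the control RNA with Cy3 on every array, so a dye preference of a clone cannot be told apart from an effect of PACAP. The labels name no vehicle for the control cells and do not say whether the repeats came from separate animals, so p-values measure the spread between these arrays, which may be smaller than that between animals. The labels give chromaffin cells as the cell type but brain as the tissue. Values are log2 ratios of PACAP over control after loess normalisation within each array, and a gene with several clones is represented by the clone of highest mean brightness.

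The extracellular matrix is the protein network that cells secrete and attach to. Fibrillar collagens form tensile fibres, type IV collagen and laminins form the basement membrane sheets that underlie endothelium and surround many cells, and integrins are paired alpha and beta receptors that hold cells to both. In the adrenal medulla, fibroblasts and vascular cells are well-known producers of collagen, and primary cultures of chromaffin cells can carry such cells along. In RNA from a mixed culture, fewer cells of a type and less RNA per cell cannot be told apart.

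Signal above background differed between the arrays most in the control channel. PACAP signal exceeded 2 SD of the local background for 90.7% to 98.3% of library spots, whereas control signal did so for 80.3%, 52.7%, 45.4% and 94.7% on repeats 1 to 4. Matrix clones followed the same order, with control signal above that level for 99, 75, 67 and 106 of 108 clones. Repeat 4 stood apart. It had the lowest share of PACAP signal above that level, 90.7%, and 1875 library spots with no area, against 577 to 903 on the other arrays. Across 104 matrix clones measured on all arrays, log2 ratios of repeats 1, 2 and 3 correlated with each other at Pearson's r of 0.231 to 0.487, and those of repeat 4 correlated with the others at -0.173 to -0.058. All clones of the array gave ranges of 0.219 to 0.372 and -0.125 to -0.002 for the same pairs. These correlations are across clones, which are not independent replicates, and share the array design and dyes. Results are therefore also given without repeat 4.

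No matrix gene passed the test after Benjamini-Hochberg adjustment over all clones (limma), and neither did any other clone of the array: 0 of 35109 were called (0.0%), with 3646 at an unadjusted p under 0.05 (10.4%). The lowest adjusted p among matrix clones was 0.454. At the unadjusted threshold, 4 matrix clones were higher with PACAP and 6 were lower. These are 3.77% and 5.66% of the 106 tested, beside 3.92% and 6.46% of all clones, so the matrix clones stood near the background in both directions. Ratios were above 0 on all 4 arrays for 8 matrix clones (7.55%, beside 9.59% of all clones) and below 0 on all 4 for 12 (11.3%, beside 8.25%). With genes counted once, 2 of 58 were higher and 3 lower, or 3.45% and 5.17%, beside 4.33% and 4.53% of 11740 named genes. The mean log2 ratio was above 0 for 27 genes and below 0 for 31, with a median of -0.02, against 0.03 over all named genes. On the separate arrays the median of the matrix genes was 0.07, -0.03, -0.04 and -0.01.

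**Figure D1:**
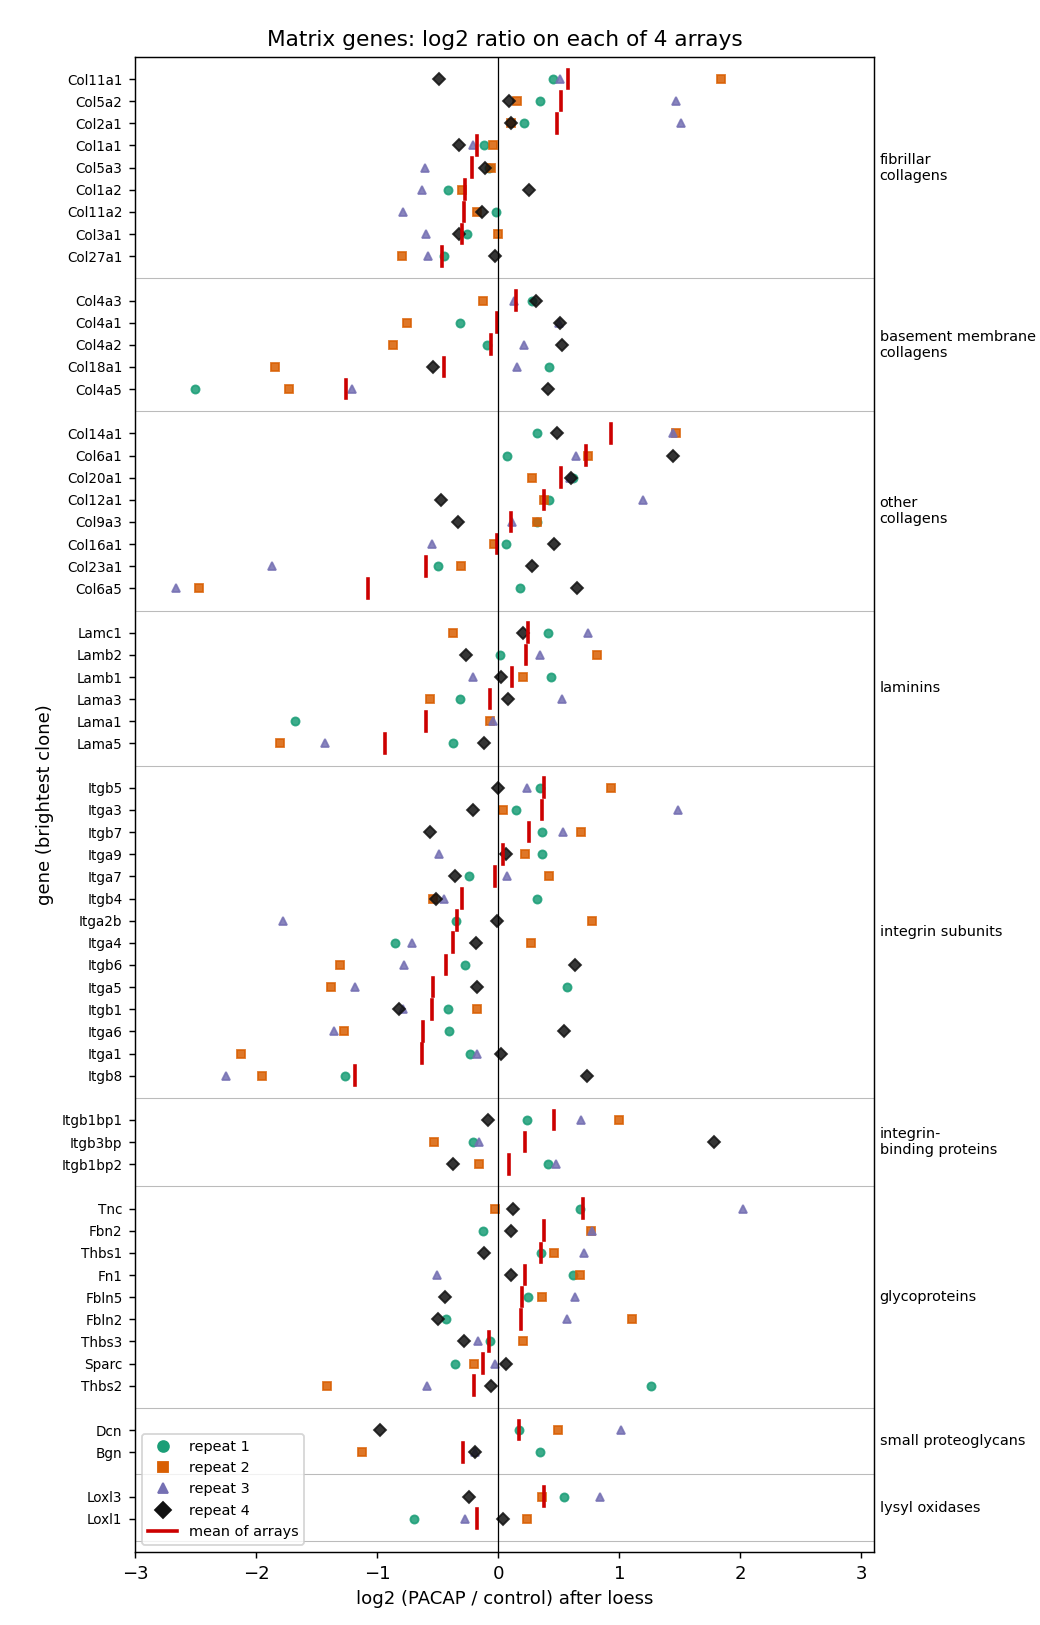
Log2 ratio of PACAP over control (x axis) for the 58 measured matrix genes (y axis), grouped by class. Each point is 1 of the 4 arrays and the red bar is the mean of the arrays. Means run from -1.26 for Col4a5 to 0.93 for Col14a1, and points of the 4 arrays lie on both sides of 0 for most genes.

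Fibrillar collagens were the class in which the sign was most often shared by the arrays under loess, though not under other scalings. Their median was -0.21 over 9 genes, and Col1a1, Col3a1, Col5a3, Col11a2 and Col27a1 were lower on all 4 arrays, while Col2a1 and Col5a2 were higher on all 4. Among all named genes, 7.87% were lower and 11.3% higher on all 4 arrays. The direction depended on the scaling: the class median was 0.41 after median centring, where no gene of the class was lower on all arrays, -0.05 after print-tip loess with 1 such gene, 0.13 from the deposited calibrated ratios and 0.25 from the deposited log2 ratios, both with none. The title of the Col11a2 clone, alpha actinin 4, contradicts its symbol. None of the 9 genes had an unadjusted p under 0.05.

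Col1a1 encodes the alpha 1 chain of type I collagen, the main fibre of connective tissue and a defining marker of fibroblasts. The log2 ratios of its brightest clone were -0.12, -0.04, -0.21 and -0.33 on repeats 1 to 4, a mean of -0.17 ± 0.12 (SD, n = 4; unadjusted p = 0.476, adjusted p = 0.784). After loess the groups were close on every array, but not under other scalings: the mean was 1.03 after median centring, 0.75 from the deposited calibrated ratios, 0.03 after print-tip loess and -2.73 from the deposited log2 ratios. The clone was above background in both channels on all 4 arrays. Its PACAP signal was 45209, 27849, 14987 and 16865 and its control signal 17761, 4905, 4798 and 43103, so the signal of the Cy3 channel moved far more between arrays than the normalised ratio. The other measured Col1a1 clones disagreed with each other. Clone AI838745 was lower on all arrays, at -0.07, -0.89, -1.65 and -0.48 (mean -0.77, unadjusted p = 0.0351), with a median spot area of 64 pixels, against 132.5 pixels for the brightest clone. Clone AI844874 was at 0.51, -0.75, 1.92 and 0.19 (mean 0.47), with control signal above background on 2 arrays.

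Col1a2, the partner chain of type I collagen, was at -0.42, -0.30, -0.63 and 0.25, so it was lower on 3 arrays and higher on repeat 4 (mean -0.27 ± 0.38, SD, n = 4). Its 3 other clones had means of -0.73, 0.02 and 0.17. Col3a1, the type III chain found beside type I in soft tissue, was at -0.26, -0.01, -0.60 and -0.33 (mean -0.30 ± 0.24, SD, n = 4; unadjusted p = 0.25), just below 0 on repeat 2. Of its other clones, AW546888 was also lower on all arrays (mean -0.47) and AW557338 was near 0 (mean 0.09). The remaining clone, AW552978, had a mean of 0.41, and its title in the scanner table is alpha actinin 4, which contradicts the symbol. Col5a2, a chain of the type V collagen that is built into type I fibres, was at 0.35, 0.15, 1.47 and 0.09 (mean 0.51 ± 0.65, SD, n = 4), all above 0 but set mainly by repeat 3. Without that repeat its mean was 0.20. Both Col27a1 clones had negative means. The brighter one was at -0.45, -0.79, -0.58 and -0.03, and clone AW489549 was at -1.16, -0.87, -3.46 and 0.26 (mean -1.31, unadjusted p = 0.037) with a spot area of 44 pixels and control signal above background on 2 arrays. Both clones have scanner titles that name no gene.

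Among the collagens of basement membranes, Col4a5 had the lowest mean of all matrix genes. It encodes the alpha 5 chain of type IV collagen. The log2 ratios were -2.50, -1.73, -1.21 and 0.41, with a mean of -1.26 ± 1.23 (SD, n = 4; unadjusted p = 0.0202, adjusted p = 0.454). PACAP signal was 116, 114, 65.0 and 208 against control signal of 534, 340, 198 and 338, so PACAP lay below control before normalisation on every array, and repeat 4 turned positive only after loess. Without repeat 4 the mean was -1.81. It was -0.84 without repeat 1 and -1.10 without repeat 2, with unadjusted p of 0.1 and 0.0799. The median spot area was 43.5 pixels, and with spots under 60 pixels left out the clone could not be tested. The chains that make up most type IV collagen, Col4a1 and Col4a2, had means near 0. Col4a1 was at -0.31, -0.75, 0.51 and 0.51 and Col4a2 at -0.10, -0.87, 0.21 and 0.52, so both were lower on repeats 1 and 2 and higher on repeats 3 and 4. The 3 other Col4a1 clones had means of 0.18, 0.21 and 0.32, and none of the 4 had the sign pattern of another on all arrays. Col18a1, whose C-terminal fragment is endostatin, was at 0.42, -1.85, 0.16 and -0.54 (mean -0.45 ± 1.02, SD, n = 4), and its other clones, both with titles of other genes, had means of -0.11 and -0.23.

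Laminins are trimers of an alpha, a beta and a gamma chain. Their class median was 0.02 over 6 genes, with 3 above 0 and 3 below. Lama5, an alpha chain of mature basement membranes, was the only laminin gene lower on all 4 arrays, at -0.37, -1.81, -1.43 and -0.12, a mean of -0.93 ± 0.82 (SD, n = 4; unadjusted p = 0.0238, adjusted p = 0.454). The decrease was large on repeats 2 and 3 and small on repeats 1 and 4, and the mean without repeat 4 was -1.21. It was -0.64 without repeat 2 and -0.77 without repeat 3, with unadjusted p of 0.105 and 0.0816. Its second clone, AA408762, had a mean of -0.70 with 1 array above 0, and the third, AA409884, was at 0.04. Lamc1, the gamma chain shared by most laminins, was the only gene with 4 or more member clones whose means were all of 1 sign. Those means were 0.11, 0.23, 0.24 and 0.67, and no Lamc1 clone was higher on all arrays. The largest, clone AI850162, was at 0.31, 0.96, 1.43 and -0.03 (unadjusted p = 0.0578), with control signal above background on 2 arrays. Lamb1 was at 0.44, 0.20, -0.21 and 0.02 (mean 0.11), and its other clones ranged from -0.43 to 0.15. Lamb2 had a mean of 0.23 ± 0.46 (SD, n = 4). Lama1 was measured on 3 arrays only, at -1.68, -0.07 and -0.04, with control signal above background on 1.

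The remaining collagens, which are associated with fibres, transmembrane or beaded-filament types, had a median of 0.24 over 8 genes. Col14a1, Col6a1 and Col20a1 were higher on all 4 arrays and no gene of the class was lower on all 4. The class median was 0.41, 0.12, 0.17, 0.18 and 0.13 with median centring, loess by print tip, scaled arrays, an added offset and the calibrated ratios, but -0.11 from the deposited log2 ratios. Col14a1, a collagen that sits on the surface of fibres, had the highest mean of all matrix genes. Its log2 ratios were 0.32, 1.47, 1.44 and 0.49, a mean of 0.93 ± 0.61 (SD, n = 4; unadjusted p = 0.0131, adjusted p = 0.454). PACAP signal was 2042, 1066, 617 and 1255 and control signal 838, 193, 142 and 2018, so repeats 2 and 3, where the ratio was large, were those with the dimmest control, as over the array as a whole. The mean without repeat 4 was 1.08. The ratio kept its sign in 14 of 14 other settings and the unadjusted p was under 0.05 in 12; without repeat 2 the mean was 0.75 with an unadjusted p of 0.0556.

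Col6a1, a chain of the beaded filaments made by fibroblasts, was at 0.07, 0.74, 0.64 and 1.44 (mean 0.72 ± 0.56, SD, n = 4; unadjusted p = 0.0341, adjusted p = 0.46). It was close to 0 on repeat 1 and highest on repeat 4. Without repeat 4 the mean was 0.49 and the unadjusted p was 0.159. Without repeat 2 or 3 the mean was 0.72 or 0.75 and the unadjusted p 0.0745 or 0.0577. The deposited log2 ratios gave -0.04. Col20a1 was at 0.62, 0.28, 0.59 and 0.60 (mean 0.52 ± 0.16, SD, n = 4; unadjusted p = 0.0562), and its clone title names no gene. The other Col20a1 clone, BE945716, went the other way on 3 arrays, at -0.38, -1.15, -0.45 and 0.40 (mean -0.40). Col12a1 had 3 clones that went different ways. The brightest was at 0.42, 0.38, 1.19 and -0.48 (mean 0.38), clone AU014943 at -1.10, -1.01, -1.42 and 0.29 (mean -0.81, unadjusted p = 0.0358), and clone AI853134 at 0.82, -0.88, -2.79 and 0.36. Col6a5 combined the largest spread with a low mean. Its ratios were 0.18, -2.47, -2.67 and 0.65 (mean -1.08 ± 1.74, SD, n = 4; unadjusted p = 0.0966), far below 0 on repeats 2 and 3 and above 0 on the others. Without repeat 4 the mean was -1.65 and the unadjusted p was 0.0192. Without repeat 1, 2 or 3 the mean was -1.49, -0.61 or -0.55, and the unadjusted p was under 0.05 in 2 of 14 other settings. The other Col6a5 clone, AI843306, was at 0.02, 0.60, -0.31 and 0.13 (mean 0.11), with control signal above background on 1 array.

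Integrin subunits had the lowest class median, -0.36 over 14 genes, with 10 genes below 0 and 4 above. It was below 0 under all 6 other normalisations or deposited ratios, from -1.66 for the deposited log2 ratios to -0.23 for print-tip loess. On the separate arrays it was -0.24, -0.07, -0.60 and -0.09. Only Itgb1 was lower and only Itgb5 higher on all 4 arrays, Itgb5 by 0.00 on repeat 4. Control signal was above background on all 4 arrays for 6 of the 14 genes. Itgb8, a subunit that pairs with the alpha V chain, was at -1.27, -1.95, -2.25 and 0.73 (mean -1.18 ± 1.34, SD, n = 4; unadjusted p = 0.0343, adjusted p = 0.461). Repeat 4 was the only array above 0, and without it the mean was -1.82 with an unadjusted p of 0.000671. Without repeat 1, 2 or 3 the mean was -1.16, -0.93 or -0.83 and the unadjusted p 0.0776, 0.138 or 0.135. PACAP signal was 192, 137, 81.4 and 204 and control signal 366, 410, 359 and 264, the median spot area was 77 pixels, and the clone title names no gene. Itga5, the alpha subunit of the main fibronectin receptor, was at 0.57, -1.38, -1.18 and -0.18 (mean -0.54 ± 0.91, SD, n = 4). Itga1, a collagen receptor subunit, was far below 0 on repeat 2 only, at -0.23, -2.12, -0.18 and 0.02, and its other clones had means of -0.52 and -0.32.

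Itgb1 encodes the beta 1 subunit, the most widely shared partner of integrin alpha chains, and is represented by 3 clones that all carry the title of this gene. The clones gave opposite results. The brightest, AW544628, was at -0.42, -0.17, -0.79 and -0.82 (mean -0.55 ± 0.31, SD, n = 4; unadjusted p = 0.0566). Clone AW553280 was at 0.54, 0.87, 0.82 and 1.41 (mean 0.91 ± 0.36, SD, n = 4; unadjusted p = 0.00707, adjusted p = 0.454), the lowest unadjusted p of all matrix clones. With each repeat left out in turn its mean was 0.74 to 1.03 and its unadjusted p 0.0146 to 0.0388. After loess the first was lower and the second higher on every array, so their values did not overlap. AW544628 alone turned positive under other scalings, with a mean of 0.46 after median centring and 0.18 from the deposited calibrated ratios, and was at -3.19 from the deposited log2 ratios. Both were above background in both channels on all arrays. AW544628 had PACAP signal of 6376, 8630, 3656 and 4898 against control signal of 3506, 1993, 2067 and 18634, and AW553280 had 2616, 3994, 1513 and 2875 against 894, 579, 368 and 2419. The gap between them was 0.95, 1.04, 1.60 and 2.23, a mean of 1.46 ± 0.59 (SD, n = 4). It was positive on every array under each of 7 normalisations, with means from 1.19 to 1.88, although the deposited log2 ratios put AW553280 itself at -1.32. The third clone was near 0 (mean -0.002) and had control signal above background on 1 array. The Itgb1 clone AW553280 was singled out after its values were seen. A level for the gene is not given by averaging these clones.

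**Figure D2:**
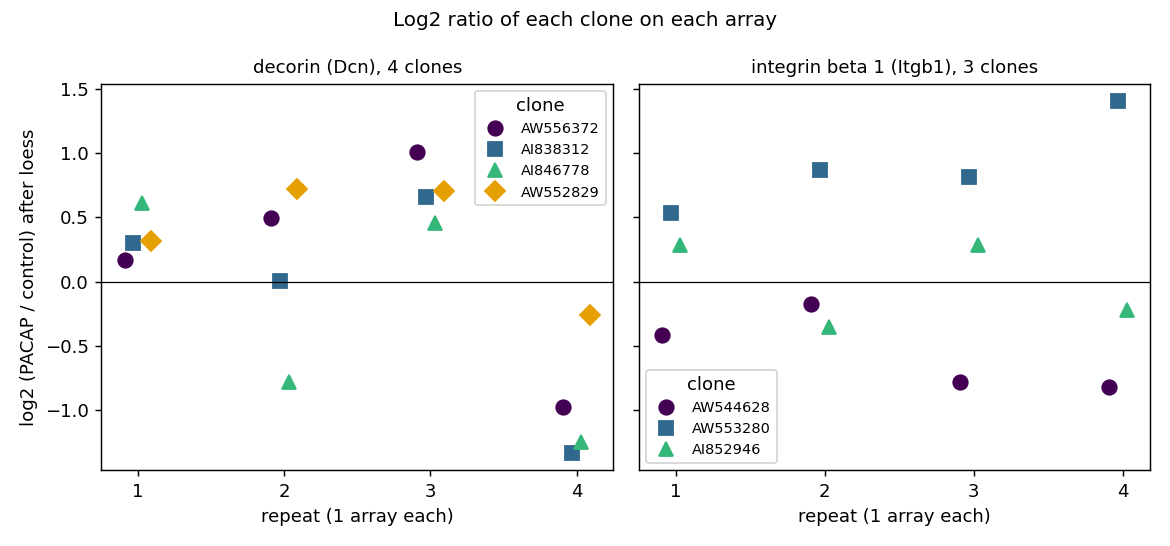
Log2 ratio of PACAP over control (y axis) on each of 4 arrays (x axis) for the clones of decorin (left) and integrin beta 1 (right), 1 symbol per clone. The 4 decorin clones all lie below 0 on repeat 4, and Itgb1 clones AW553280 and AW544628 lie on opposite sides of 0 on every array after loess.

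The integrin-binding proteins had means of 0.46 for Itgb1bp1, 0.22 for Itgb3bp and 0.09 for Itgb1bp2. Itgb1bp1, which binds the cytoplasmic tail of the beta 1 subunit, was at 0.24, 1.00, 0.69 and -0.09 (unadjusted p = 0.129), higher on 3 arrays. Itgb3bp was below 0 on repeats 1 to 3 and at 1.78 on repeat 4, so its mean rests on that array.

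Matrix glycoproteins had a median of 0.20 over 9 genes, with 6 above 0 and 3 below, and of -0.02 under print-tip loess. None was higher or lower on all 4 arrays. Tnc, tenascin C, a glycoprotein of remodelling tissue, was at 0.67, -0.03, 2.02 and 0.12 (mean 0.70 ± 0.93, SD, n = 4; unadjusted p = 0.0909). Repeat 3 set that mean, which was 0.26 without it, and the other Tnc clones had means of -0.55 and -0.004. Fn1, fibronectin, was at 0.62, 0.67, -0.51 and 0.10 (mean 0.22 ± 0.55, SD, n = 4), with both directions among the arrays. Thbs1, thrombospondin 1, was at 0.36, 0.46, 0.71 and -0.12 (mean 0.35 ± 0.35, SD, n = 4; unadjusted p = 0.2), higher on the arrays other than repeat 4. Fbln2, a fibulin of basement membranes and elastic fibres, was at -0.43, 1.10, 0.56 and -0.50.

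Sparc, a secreted calcium-binding glycoprotein that binds collagen, had 9 clones, the most of any member. Of these, 6 were higher on average and 3 lower, from -0.31 to 0.88. The brightest was at -0.35, -0.20, -0.03 and 0.07 (mean -0.13 ± 0.19, SD, n = 4; unadjusted p = 0.599). Clone AI850317 was higher on all arrays, at 0.26, 0.66, 1.97 and 0.65 (mean 0.88 ± 0.75, SD, n = 4; unadjusted p = 0.0249, adjusted p = 0.454). Its control signal was above background on 2 arrays and its title names no gene. Clone AW537561, titled as Sparc and above background in the control on all arrays, had the smallest spread, at 0.06, -0.09, 0.14 and 0.14. The titles of Sparc clones AI838921 and AI840184 contradict the symbol, naming a collagen VI chain and a LIM domain protein.

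**Figure D3:**
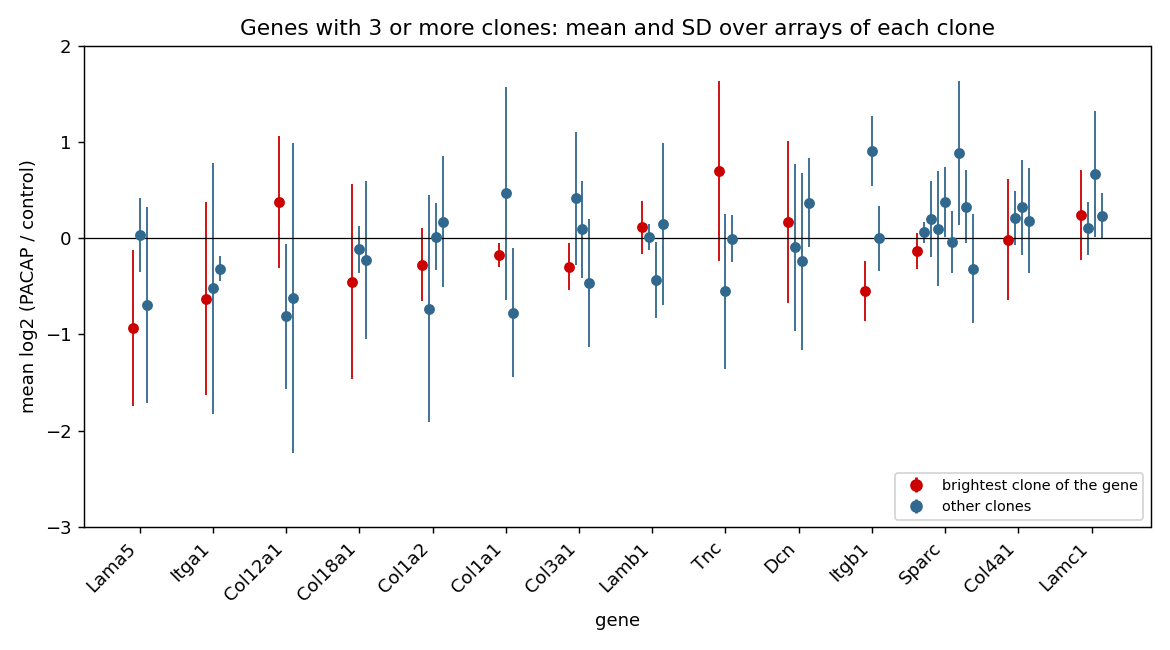
Mean log2 ratio of PACAP over control (y axis; bars are the SD over arrays) of every measured clone of the 14 genes with 3 or more clones (x axis), with the brightest clone of each gene in red. Clones lie on both sides of 0 for 11 of the genes and on 1 side for Itga1, Col18a1 and Lamc1.

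Small proteoglycans were represented by Dcn and Bgn. Decorin coats collagen fibres and is made in quantity by fibroblasts. Its 4 clones had the same sign on 3 of the 4 arrays. On repeat 1 they were at 0.17, 0.30, 0.61 and 0.31, on repeat 2 at 0.49, 0.004, -0.78 and 0.73, on repeat 3 at 1.01, 0.66, 0.46 and 0.71, and on repeat 4 at -0.98, -1.34, -1.25 and -0.26, in the order AW556372, AI838312, AI846778 and AW552829. All clones were above 0 on repeats 1 and 3 and below 0 on repeat 4. AW556372 had PACAP signal of 5289, 4279, 1954 and 1494 against control signal of 2030, 757, 396 and 6540. The median spot of the array also turned from more PACAP than control signal on repeat 1, 416 against 311, to less on repeat 4, 261 against 579. The turn in unnormalised signal was therefore not particular to Dcn, but its size was larger in this clone. With only the array median taken off, AW556372 was at 0.80 on repeat 1 and -0.96 on repeat 4. Repeat 4 lay below the median of the other repeats in all 4 clones, with differences from -1.71 to -0.97. Of 975 named genes with 4 or more clones, 99 (10.2%) had all clones lower on repeat 4 than the median of the other arrays, and 3 (0.308%), Dcn included, had all clones below 0 there and above 0 on repeats 1 and 3. This pattern was noticed in the data before it was counted. The difference was negative in every Dcn clone under 6 of 7 normalisations and positive, from 1.01 to 2.67, in the deposited log2 ratios. The mean over the 4 arrays was 0.17 ± 0.84 (SD, n = 4; unadjusted p = 0.627) for the brightest clone, and 0.56 without repeat 4. Bgn, biglycan, a close relative of decorin, was at 0.34, -1.13, -0.19 and -0.20 and did not show that pattern. The lysyl oxidases, enzymes that cross-link collagen and elastin, were represented by Loxl1 (mean -0.17) and Loxl3 (mean 0.37), and the title of the Loxl3 clone names lysyl oxidase-like 2.

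Agreement between clones of a gene was then counted. Clones of 1 gene share their target and are not replicates. Of 22 matrix genes with 2 or more measured clones, 6 (27.3%) had all clone means of 1 sign, beside 41.2% of 5935 named genes. They were Col11a2, Col18a1, Col27a1, Itga1, Itgb4 and Lamc1. With 3 or more clones it was 3 of 14 (21.4%), beside 24.9% of 2611. Scanner titles matched the symbol for 73 of the 108 clones, named no gene for 28 and contradicted it for 7.

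The level of matrix RNA in each channel was then followed across repeats, each gene against its own mean. In the control channel the median deviation of 57 matrix genes was 0.17, -0.21, -0.25 and 0.43 log2 units on repeats 1 to 4, high on repeats 1 and 4 and low on repeats 2 and 3. All named genes gave 0.11, -0.19, -0.25 and 0.30, in the same order. In the PACAP channel matrix genes were at 0.06, -0.07, 0.09 and -0.16 and all named genes at 0.03, 0.04, 0.07 and -0.09, so the range was smaller. Control signal of the fibrillar collagens moved the same way, with a median deviation of 0.31, -0.36, -0.23 and 0.44. The median of the integrin subunits stayed within -0.04 to 0.03, but single subunits moved widely, from -1.52 for Itgb8 on repeat 4 to 1.42 for Itga1 on repeat 2. Quantile normalisation over the 8 channels lowered the control value of repeat 4 to 0.10. Each repeat is 1 array, so differences between repeats and between arrays cannot be told apart.

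Markers of other cell types were set beside these values. In the control channel, 12 fibroblast markers deviated by 0.33, -0.45, -0.25 and 0.54 and 12 chromaffin markers by 0.30, -0.61, -0.40 and 0.71, so the markers of both cell types went up and down with the matrix genes and with all named genes. Leukocyte (0.11, 0.04, -0.42 and 0.50) and erythrocyte markers (0.25, 0.19, -0.85 and 0.41) were also lowest on repeat 3 and highest on repeat 4. Endothelial markers (0.13, -0.17, 0.09 and 0.09) did not share that order. Neither did adrenal cortex (-0.31, -0.17, 0.11 and 0.03) or Schwann and sustentacular markers (-0.03, 0.09, -0.005 and -0.07). Several fibroblast markers, such as Col1a1 and Dcn, are themselves matrix genes. Summed signals, as multiples of the channel median, ranged in the control channel from 126 to 256 for matrix genes, from 66.0 to 149 for fibroblast markers and from 57.8 to 174 for chromaffin markers. In the PACAP channel they ranged from 221 to 354, from 153 to 259 and from 199 to 271. Sums for endothelial markers were 9.12 to 25.7 in the control and 10.6 to 15.6 in the PACAP channel. Sums for adrenal cortex markers were 9.82 to 12.6 and 10.4 to 12.1, for Schwann and sustentacular markers 9.21 to 12.8 and 10.7 to 13.2, for leukocyte markers 9.76 to 18.8 and 17.1 to 19.0, and for erythrocyte markers 2.76 to 8.31 and 5.50 to 8.66. Of the defining genes of each type, Th, Chga, Col1a1 and Pecam1 had control signal above background on all 4 arrays. Pdgfra, Cdh5 and Cyp11a1 had it on 3, Sox10 on 2, and Star and Ptprc on 1. Intensities had a floor of 1, so no marker could be at 0 on an array where it was measured. The part of other cells in the matrix values was not tested.

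**Figure D4:**
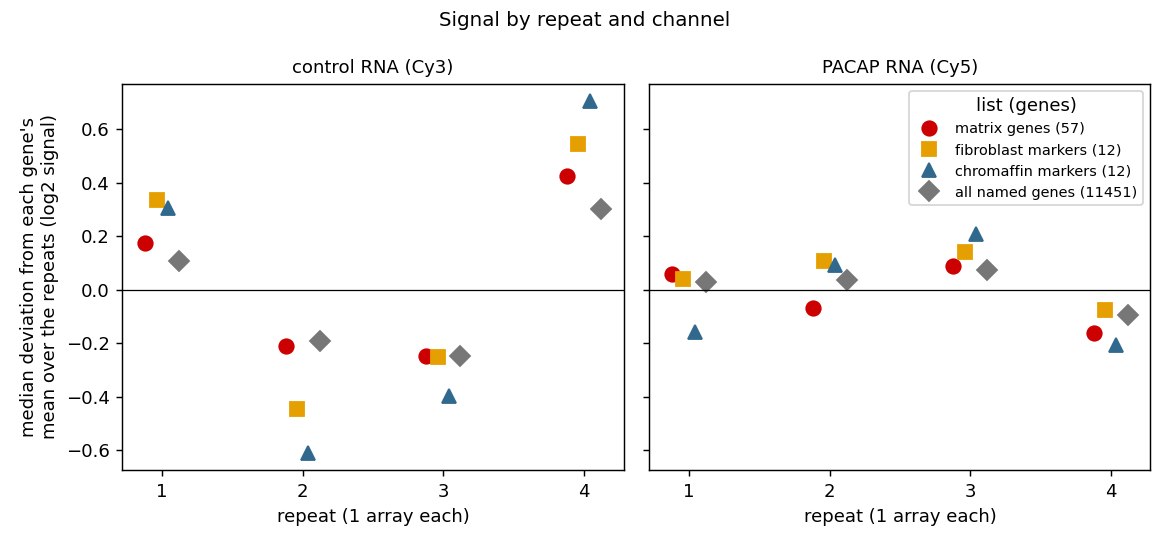
Median deviation of log2 signal from each gene's own mean over the repeats (y axis) on each array (x axis), in the control channel (left) and the PACAP channel (right), for matrix genes, fibroblast markers, chromaffin markers and all named genes. In the control channel the matrix genes lie at 0.17, -0.21, -0.25 and 0.43, in the same order as all named genes.

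Median log2 ratios of the marker lists were -0.17 over 13 fibroblast markers, 0.07 over 10 endothelial, -0.29 over 8 adrenal cortex, -0.07 over 7 Schwann and sustentacular, 0.02 over 10 leukocyte, -0.31 over 2 erythrocyte and 0.17 over 12 chromaffin markers. Fibroblast markers were at -0.18, -0.04, -0.13 and 0.24 on repeats 1 to 4, and chromaffin markers at -0.05, 0.20, 0.23 and 0.24. At an unadjusted p under 0.05, 3 of the 12 chromaffin markers were higher, beside 4.33% of named genes. On all 4 arrays, 4 chromaffin markers were higher and 1 was lower, beside 11.3% and 7.87% of named genes. Of the 10 endothelial markers, 3 were higher and 0 lower on all 4 arrays, and of the 13 fibroblast markers 1 was higher and 2 were lower. Only 1 of the 10 endothelial markers had control signal above background on all 4 arrays. On repeats 2 and 3, 40% and 20% of them did, beside 64.9% and 55.0% of named genes, so their ratios rest largely on dim control signal.

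**Figure D5:**
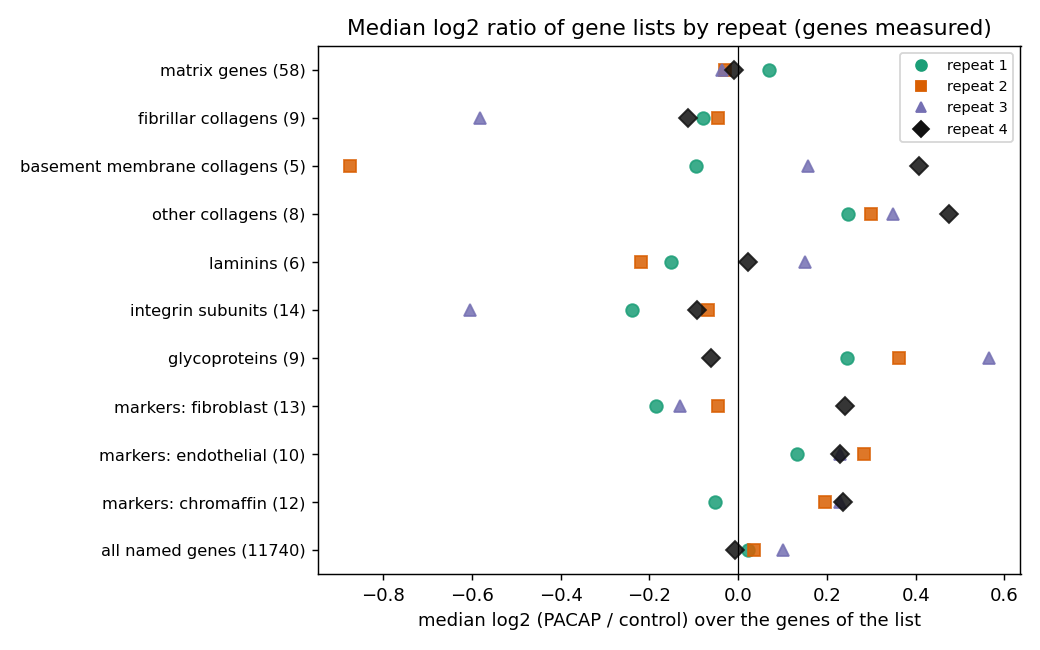
Median log2 ratio of PACAP over control (x axis) on each of 4 arrays (points) for matrix genes, their larger classes, marker lists and all named genes (y axis, with the number of genes measured). The median of the 58 matrix genes stays between -0.04 and 0.07, while the smaller classes spread further, basement membrane collagens from -0.87 to 0.41.

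Other genes of matrix biology, from lists that the symbol rule left out, gave few values past the unadjusted threshold, where 4.33% of named genes were higher and 4.53% lower. Of 26 further basement membrane and matrix glycoprotein genes, 0 were higher and 1 was lower (median -0.08). That gene was Matn4, matrilin 4, a cartilage-type adaptor protein, at -1.78, -1.45, -4.02 and 0.64 (mean -1.65 ± 1.91, SD, n = 4; unadjusted p = 0.028), lower on all arrays but repeat 4. Ltbp2, a microfibril-associated protein, had a mean of 0.70, was at -0.34 on repeat 4 and had control signal above background on 2 arrays. Ccn4 was lower on all 4 arrays (mean -0.49 ± 0.18, SD, n = 4), with control signal above background on 1. Mfap2 had a mean of 0.40. Among 18 proteoglycan genes (median 0.04) and 15 genes of collagen synthesis and assembly (median 0.04), 0 passed in either direction. Gpc3, a glypican of the cell surface, had the smallest p of the former at a mean of 0.59, and its 1 other clone was lower. Of the 15 genes of collagen synthesis and assembly, 8 had means above 0 and 7 below. Mia3 was higher on all 4 arrays (mean 0.45 ± 0.30, SD, n = 4), though its 1 other clone was lower. P3h2 had a mean of 0.22. Pcolce, which enhances the removal of the procollagen C-propeptide, was lower on all 4 arrays (mean -0.43 ± 0.21, SD, n = 4). P4ha1, a subunit of collagen prolyl hydroxylase, was lower on 3 (mean -0.48 ± 0.64, SD, n = 4). The 1 other Pcolce clone was also lower, and the 1 other P4ha1 clone was higher.

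Of 23 genes of matrix proteolysis (median 0.04), Timp1, a secreted inhibitor of matrix metalloproteinases, was the only one past the unadjusted threshold. It was at 1.03, 0.94, 1.34 and 0.73, a mean of 1.01 ± 0.25 (SD, n = 4; adjusted p = 0.454). Timp3, a matrix-bound inhibitor, was slightly above 0 on all arrays (mean 0.28). Of 28 genes of the integrin adhesion complex (median 0.10, Itgb1bp1 included), 1 was higher and 0 lower. That gene was Fermt2, kindlin 2, which activates integrins, at 0.97, 1.63, 1.03 and 1.44, but the title of this clone names a subunit of NADH dehydrogenase. The 2 other Fermt2 clones were also higher. Vasp, an actin regulator at adhesion sites, was above 0 on all arrays (mean 0.58 ± 0.45, SD, n = 4; unadjusted p = 0.061), and Ddr2, a collagen-binding kinase, was below 0 on 3 (mean -0.70 ± 0.86, SD, n = 4).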

How the data were processed

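Arrays of mouse cDNA clones were hybridised with bovine RNA, so less conserved sequences may give less signal. Mean intensities of both dyes, their local background, its spread and spot area were deposited in 1 scanner table per array, per the file headers. The values show that the local background had been taken off these means by the authors. The deposited ratio of a spot is Cy5 over Cy3 divided by 1 calibration factor per array. The deposited series table holds log2 ratios, which were recomputed as the ratio after a second background subtraction with a floor of 1, and which are not centred. The sources used here name no image program.

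Because the means were already corrected, no further correction was made and an offset of 50 served as the alternative to normexp. Global loess (limma 3.58.1, R 4.3.3) was applied to log2(Cy5 / Cy3) of intensities with a floor of 1. A clone entered the test if 3 or more of the 4 arrays had signal over 2 background SD in either channel, which left 35109 of 35960 library clones. lmFit and eBayes tested the mean against 0 (intercept only, 2-sided). Tables and plots were made in Python 3.11.15 (matplotlib 3.10.9, pandas 2.3.3, scipy 1.17.1, numpy 2.4.6). Symbols came from the platform annotation, joined to spots by plate position. An entry was kept where the median difference of its 4 values was under 0.1 log2 units (35695 of 35873 entries). In 92.2% of joined entries all 4 values were within that limit. Of 2343 joins with a comparable clone identifier, 2302 had the same identifier. No sequence of the clones was used here.

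Named genes were the 6 of smallest unadjusted p in each direction, every member with 3 or more clones, those measured of 32 genes fixed by name (22), and up to 2 in each direction per pathway list. The other 10 of the 32, Col5a1, Col6a2, Lama2, Lama4, Lum, Fbln1, Fbn1, Lox, Loxl2 and Itgav, have no value under the rule. Members and lists were chosen with earlier results of these data known. In simulated data with 35109 probes, an 8-fold change was called in 55 of 66 probes, a 4-fold change in 32 of 67 and a 2-fold change in 1 of 67. False calls numbered 0. The simulation used independent normal noise with the SD of each clone, and the same change on all 4 arrays. It held no dye effect and no departing repeat, so these rates may not hold for the real arrays. Unchanged probes had an unadjusted p under 0.05 (limma) in 5.40%, beside 10.4% of the real clones. The number of arrays limits the precision.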

Additional observations from a re-analysis of the deposited data

Results flagged for a closer look

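Of 51 groups of 4 array values examined, 4 had 1 array set apart from the other 3. The gap was a large share of the whole range. Chance gives about 1 in 20 for independent normal values, and 4 of 51 is near that rate. The groups share clones and arrays and are not independent. For Col20a1 the array of repeat 2 gave 0.28, where the other arrays gave log2 ratios of 0.59 to 0.62. Itga1 was at -2.12 on repeat 2, against -0.23 to 0.02. The median of the fibrillar collagens was -0.58 on repeat 3, against -0.11 to -0.04. The median of the chromaffin markers was -0.053 on repeat 1, against 0.20 to 0.24.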

How the results depend on the processing

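Counts of matrix clones at an unadjusted p under 0.05 and of genes with 1 sign on all arrays moved with the scaling; shares in parentheses are those of all clones or all named genes under the same setting. Of 32 named clones, 14 kept their sign in every setting run. Median centring gave 9 higher clones of 106 (7.68%), 2 genes of 58 lower on all arrays (7.47%) and a median of 0.30, with all named genes at 0.13. Print-tip loess gave 4 genes lower on all arrays (8.51%). The deposited log2 ratios, median centred, gave 2 higher (1.24%) and 18 lower (11.9%) matrix clones and a median of -0.14, with 371 calls at an adjusted p under 0.05 over the array. They turned Col6a1 to -0.04 and Itgb1 clone AW553280 to -1.32. The deposited calibrated ratios gave 14 lower clones (15.8%) and 4 genes lower on all arrays (14.2%). Robust moderation with a trend gave 3 calls over the array. Averaging the clones of a gene left 3 genes lower on all arrays. Leaving out 1 repeat at a time gave 2 to 5 higher and 2 to 8 lower clones, 7 to 17 genes higher and 7 to 17 lower on all remaining arrays, and medians of -0.121 to 0.022. Both upper counts of genes came without repeat 4, where 21.6% and 16.7% of all named genes did so, and the smallest counts of clones came without repeat 2 or 3. The PACAP signal of repeats 1, 2 and 4 moved to 0.20, 0.069 and -0.35 with spots under 60 pixels left out. Under quantile normalisation repeat 4 moved to -0.032 in the PACAP and 0.10 in the control channel. The cause of these shifts was not tested. Each array sets PACAP against the control of the same repeat, so the test of the ratio against 0 is already paired by repeat. Dim control signal limits ratios on repeats 2 and 3.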

Other observations

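Outside the members, 24 clones carry a scanner title of a matrix gene but were not taken by the symbol rule, 14 because the annotation gives another symbol, 6 because it gives none and 4 because it gives several. Of these, 11 had a mean above 0 and 13 below 0, with a median of -0.03. The 6 without a symbol had a median of 0.18. Clones titled as type III procollagen differed widely: AA408830 had a mean of 0.68 and AI842703 a mean of -1.12. AI835094, annotated as Trim8 and measured on 3 arrays, had a mean of -2.18, and another Trim8 clone of that title, AI846002, had a mean of -0.06. A clone titled lumican, AW547840, was at 0.12, 0.71, 0.63 and -0.15, above 0 on repeats 1 to 3 and below 0 on repeat 4, as the brightest Dcn clone was. Several other matrix genes, among them Thbs1, Lamb2 and Col12a1, had the same signs, and the share over the array was not counted. Clones titled fibulin 1 had means of 0.15, 0.04 and 0.43. These clones were looked up after the values of the members were seen.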
